A study of Homo sapiens with 4 samples.

Results

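The genes described here encode 43 proteins of DNA damage repair and damage signaling, chosen as a list of gene symbols and matched by Ensembl identifier to 43 of the 58735 rows of the count table. MDA-MB-231 and SUM159 are human triple-negative breast cancer (TNBC) cell lines. Each was treated for 72 h with 1 μM mebendazole (MBZ), an anthelmintic that binds tubulin, or with the DMSO vehicle, and 1 library of mRNA-enriched RNA was sequenced for each of the 4 conditions. With 1 library per condition, no value has a replicate check. Errors are 95% counting intervals on the reads of the 2 libraries of a line, which compare those libraries and not the conditions. In bulk RNA, fewer cells of a kind and less RNA per cell cannot be told apart.

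Levels are in CPM, a count scaled to the size of its library, and changes are differences of log2 CPM between the libraries of a line after TMM scaling, which aligns the bulk of the genes. The 4 libraries held 17143139 to 24897586 counts, the deepest being MDA-MB-231 with DMSO. VIM, CD44 and KRT18, which both lines are known to express, had at least 4197 counts in every library. The estrogen receptor gene ESR1 had at most 18 counts and the progesterone receptor gene PGR had 0, which allows up to 0.120 to 0.175 CPM by library, while ERBB2 had 1216 to 1996 counts. Of 3 markers of other cell types, ALB had at most 2 counts, PECAM1 had 328 to 825, and the leukocyte gene PTPRC had 8 and 23 counts in MDA-MB-231 and 216 and 60 in SUM159 with DMSO and MBZ. Which cells of the SUM159 culture the PTPRC reads came from was not tested.

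Cells repair DNA double-strand breaks along 2 main routes. Homologous recombination copies the intact sister chromatid and is used mainly in S and G2 phase, when a sister is present, whereas nonhomologous end joining seals the ends directly throughout the cell cycle. Fanconi anemia proteins remove crosslinks between the DNA strands and hand the resulting break to recombination. ATM and ATR are the kinases that report damage to the rest of the cell, and many recombination genes are transcribed together with the genes of DNA replication.

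After MBZ, more repair genes were lower than higher in MDA-MB-231, and more were higher than lower in SUM159. In MDA-MB-231, 19 of the 43 genes were at least 1.5-fold lower after MBZ (44.2%, against 15.8% of all 15142 genes compared) and 3 were at least 1.5-fold higher (6.98%, against 18.3%). In SUM159, 16 were at least 1.5-fold higher (37.2%, against 21.5% of 15674 genes) and 3 were at least 1.5-fold lower (6.98%, against 21.7%). Over the 43 genes, MBZ over DMSO had a median on the log2 scale of -0.37 in MDA-MB-231 and 0.22 in SUM159, beside -0.02 and -0.03 for all genes compared. All 43 passed the filter of a mean of at least 10 counts in each line. With scaling by total counts in place of TMM, which moved the median of all genes to 0.25 and 0.27, the split was 5 higher and 10 lower in MDA-MB-231 (29.1% and 7.57% of all genes) and 20 higher and 0 lower in SUM159 (32.8% and 12.8%), and the medians of the 43 genes were -0.10 and 0.52. Of the 41 calls, 12 were lost and 6 others gained under that scaling. The 15 genes that share no exonic bases with another gene of the count table and have no pseudogene of their name had medians of -0.75 and 0.55 with TMM.

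**Figure D1:**
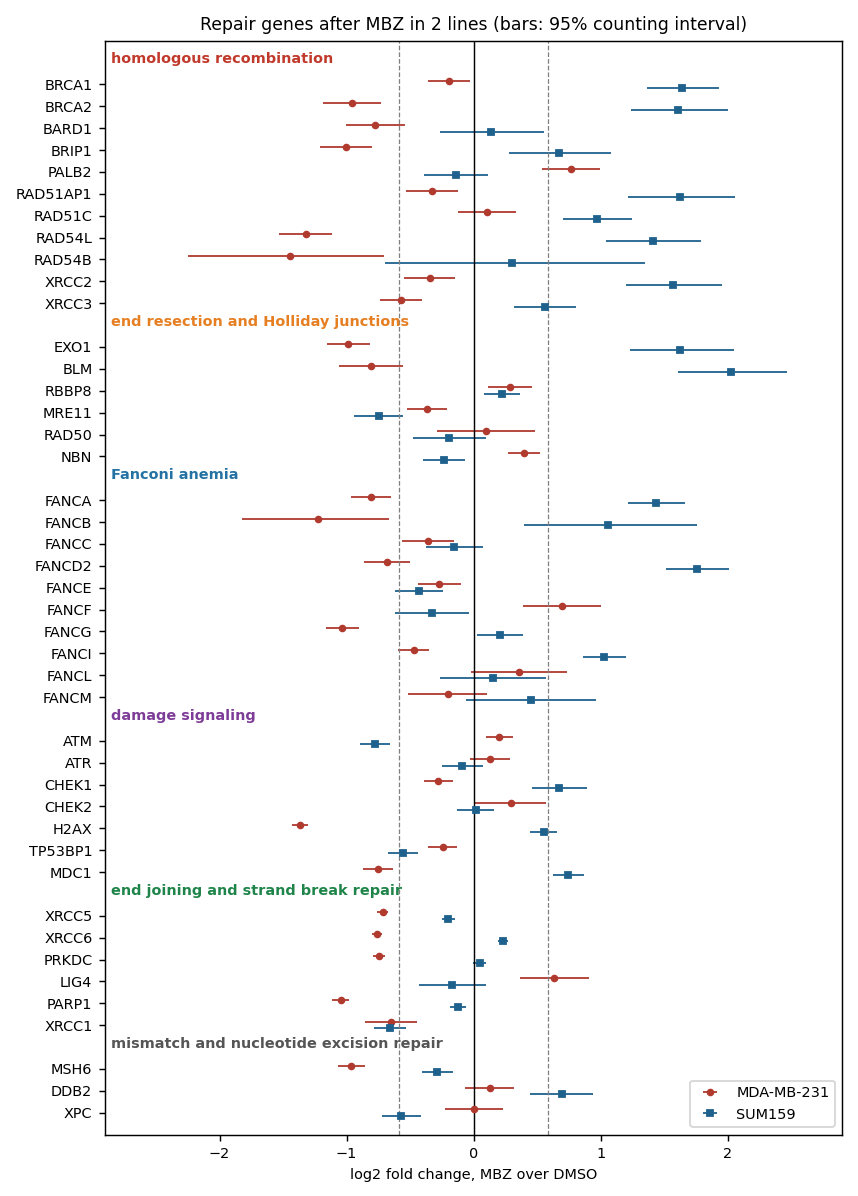
Log2 fold change of MBZ over DMSO (horizontal axis) for each of the 43 repair genes, grouped by role, in MDA-MB-231 (red circles) and SUM159 (blue squares). Bars are 95% counting intervals on the 2 libraries of a line, and dashed lines mark a 1.5-fold change. BLM lies at -0.81 in MDA-MB-231 and 2.02 in SUM159.

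Both directions met in the same gene for 9 of the 43, which were at least 1.5-fold lower in MDA-MB-231 and at least 1.5-fold higher in SUM159 (20.9%, against 3.12% of the 13733 genes compared in both lines). They were BRCA2, BRIP1, RAD54L, EXO1, BLM, FANCA, FANCB, FANCD2 and MDC1. With scaling by total counts 7 genes met this (2.17% of all genes), of which 5 were among the 9 (BRCA2, BRIP1, RAD54L, EXO1 and FANCB) and the others were RAD54B and H2AX. None went the other way at that size, which 2.92% of all genes did. XRCC1 was the 1 gene at least 1.5-fold lower in both lines (4.71% of all genes), which no gene was with scaling by total counts, and none was at least 1.5-fold higher in both (6.12%). Counting intervals lay below 0 in MDA-MB-231 and above 0 in SUM159 for 18 genes (10.6% of all genes). The reverse, found for NBN, FANCF and ATM, is a share of the 43 near that of all genes (9.4%). Between the lines, Pearson r over the 43 changes was -0.379 and Spearman rho -0.385, beside 0.195 and 0.172 across all genes compared in both lines. These correlations are over genes that share the same 4 libraries.

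**Figure D2:**
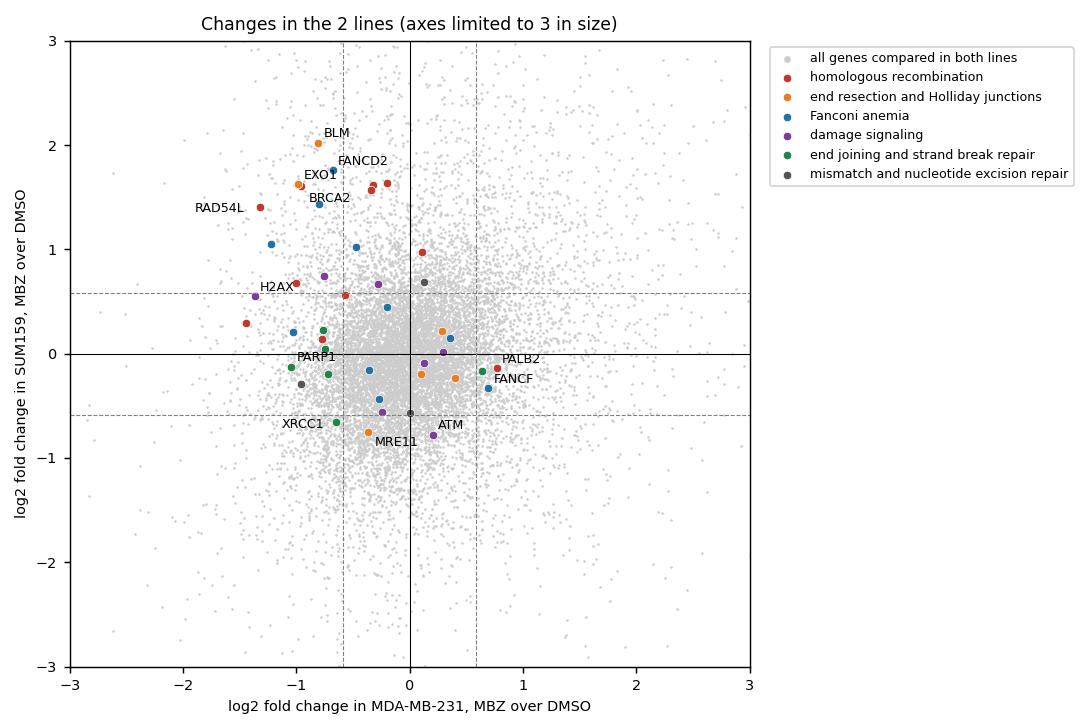
Log2 fold change of MBZ over DMSO in MDA-MB-231 (horizontal axis) and SUM159 (vertical axis) for all genes compared in both lines (grey) and the 43 repair genes, colored by role. Dashed lines mark a 1.5-fold change, and genes beyond 3 in size on either axis are not shown. The 9 genes of the upper left corner include BLM, EXO1, RAD54L and BRCA2.

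Among the 11 genes of homologous recombination, 7 were at least 1.5-fold higher and none lower in SUM159 (63.6% and 0%, against 21.5% and 21.7% of all genes), and their log2 fold changes had a median of 0.97. In MDA-MB-231, 5 were lower and 1 was higher (45.5% and 9.09%, against 15.8% and 18.3%), with a median of -0.57. BRCA1 (ENSG00000012048, chromosome 17 from 43044295 to 43170245 of GRCh38), the ubiquitin ligase that starts recombination at resected ends, had 723 reads in the DMSO library of MDA-MB-231 and 522 in the MBZ library. In SUM159 it had 130 and 505 counts. These gave log2 fold changes of -0.20 (95% counting interval -0.36 to -0.03) and 1.64 (1.36 to 1.93), and the SUM159 library with DMSO was the lowest of the 4. With scaling by total counts the value in MDA-MB-231 was 0.07. BARD1, the partner of BRCA1 in that ligase, had 471 and 228 counts in MDA-MB-231, a log2 fold change of -0.77 (-1.01 to -0.54), whereas its 89 and 122 counts in SUM159 did not differ beyond counting error (0.14, interval -0.27 to 0.55). BARD1 stood at -0.51 in MDA-MB-231 when scaled by total counts, short of 1.5-fold.

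BRCA2 (ENSG00000139618, chromosome 13 from 32315086 to 32400268) encodes the protein that loads the recombinase on single-stranded DNA. Its counts went from 535 to 228 in MDA-MB-231 and from 74 to 281 in SUM159, log2 fold changes of -0.96 (-1.19 to -0.73) and 1.61 (1.23 to 2.0). The level in CPM was 5.15-fold higher in MDA-MB-231 than in SUM159 with DMSO, and 1.14-fold higher in SUM159 than in MDA-MB-231 with MBZ. PALB2, which joins BRCA1 to BRCA2, did not share this pattern. It had 277 and 390 counts in MDA-MB-231, a log2 fold change of 0.77 (0.54 to 0.99), and 245 and 277 in SUM159, a log2 fold change of -0.14 (-0.39 to 0.11). BRIP1, a helicase that binds BRCA1, went from 686 to 283 counts and from 79 to 157 counts, log2 fold changes of -1.0 (-1.21 to -0.80) and 0.67 (0.28 to 1.08).

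RAD54L (ENSG00000085999, chromosome 1 from 46246461 to 46278480) encodes a motor protein that drives strand exchange. Its 761 counts with DMSO were 252 with MBZ in MDA-MB-231, and its 79 counts were 261 in SUM159. The log2 fold changes were -1.32 (-1.53 to -1.11) and 1.41 (1.04 to 1.79). Between the lines its CPM differed 6.87-fold with DMSO and 1.05-fold with MBZ. Its relative RAD54B had only 66 and 20 counts in MDA-MB-231 and 15 and 23 in SUM159. The log2 fold change of RAD54B lay outside counting error in the first line (-1.44, interval -2.25 to -0.71) and inside it in the second (0.30, interval -0.70 to 1.34, and 0.60 with total counts). RAD54B shares 3511 of its 5319 exonic bases with FSBP on the same strand, and reads over bases of 2 genes are left out in the union mode of HTSeq.

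RAD51AP1, which stimulates strand invasion, had 497 and 328 counts in MDA-MB-231 and 61 and 234 in SUM159. XRCC2, of the paralog complexes that assist the recombinase, had 516 and 336 counts in the first line and 76 and 281 in the second. Both were thus about 3-fold higher after MBZ in SUM159 (3.08-fold for RAD51AP1 and 2.97-fold for XRCC2) and under 1.5-fold lower in MDA-MB-231 (1.25-fold and 1.27-fold). XRCC3 and RAD51C belong to the same family of paralogs. RAD51C in SUM159 went from 159 to 388 counts, 1.96-fold higher. In MDA-MB-231 it had 341 and 304 counts, and its interval included 0 (-0.12 to 0.33). XRCC3 had 837 and 466 counts in the first line and 213 and 391 in the second. For XRCC3 the log2 fold changes were -0.57 and 0.56, both short of 1.5-fold. XRCC3 passed it with DESeq2 size factors in MDA-MB-231 (-0.62) and with total counts in SUM159 (0.86), and 5756 of its 7507 exonic bases lie opposite exons of KLC1.

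Of the 6 genes of end resection and Holliday junctions, 2 were at least 1.5-fold lower in MDA-MB-231 and none higher (median -0.14), and 2 were higher and 1 lower in SUM159 (median 0.02). In MDA-MB-231 the shares were 33.3% and 0%, against 15.8% and 18.3% of all genes. The SUM159 shares of 33.3% and 16.7% lie near the 21.5% and 21.7% of all genes. BLM (ENSG00000197299, chromosome 15 from 90717346 to 90816166), the helicase that dissolves crossed recombination intermediates, had 406 reads in the DMSO library of MDA-MB-231 and 192 in the MBZ library. In SUM159 it had 56 and 284 counts. The log2 fold changes of -0.81 (-1.06 to -0.56) and 2.02 (1.61 to 2.47) differed by 2.83 (counting interval 2.35 to 3.31), the widest difference among the 43 genes. Scaled by total counts, BLM was short of 1.5-fold in MDA-MB-231, at -0.54. EXO1 (ENSG00000174371, chromosome 1 from 241847967 to 241895148), the exonuclease of long-range resection, went from 984 to 411 counts and from 65 to 250 counts, log2 fold changes of -0.99 (-1.16 to -0.82) and 1.63 (1.23 to 2.04). With DMSO its CPM was 10.8-fold higher in MDA-MB-231 than in SUM159, and with MBZ 1.78-fold higher.

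The complex that first binds a broken end differed from BLM and EXO1. MRE11, its nuclease, had 867 and 556 counts in MDA-MB-231 and 518 and 384 in SUM159, log2 fold changes of -0.37 (-0.52 to -0.21) and -0.75 (-0.94 to -0.55), the latter -0.45 and short of 1.5-fold when scaled by total counts. NBN, the subunit that recruits ATM, had 986 and 1074 counts and then 575 and 609, log2 fold changes of 0.40 (0.27 to 0.52) and -0.23 (-0.40 to -0.07), which scaling by total counts turned to 0.66, past 1.5-fold, and 0.07. RAD50, the coiled-coil ATPase of the complex, had intervals that included 0 in either line, from -0.29 to 0.48 and from -0.48 to 0.09. Its 108 to 217 counts are few, and 8124 of its 10565 exonic bases are shared with the gene ENSG00000283782 on the same strand. RBBP8, whose product CtIP activates the MRE11 nuclease, was at 0.29 and 0.22, and its difference between the lines was within counting error (-0.06, interval -0.28 to 0.16).

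The promoters shown are those of the 4 genes with the widest difference between the lines (BLM, RAD54L, EXO1 and BRCA2), picked by that difference. Each line gives the 250 bases before the first transcription start that RefSeq lists for the gene on GRCh38.p14, 5′ to 3′ on the plus strand, which is the coding strand of all 4 genes, at chr15:90717096-90717345, chr1:46247438-46247687, chr1:241847954-241848203 and chr13:32315258-32315507. Capitals mark the CCAAT box in either orientation (CCAAT or ATTGG). Matches of the E2F words TTTCCCGC, TTTCGCGC, TTTGCCGC and TTTGGCGC and of the cell cycle homology region word TTTGAA, also searched on both strands, would be in capitals too, but these 4 windows hold none.
BLM: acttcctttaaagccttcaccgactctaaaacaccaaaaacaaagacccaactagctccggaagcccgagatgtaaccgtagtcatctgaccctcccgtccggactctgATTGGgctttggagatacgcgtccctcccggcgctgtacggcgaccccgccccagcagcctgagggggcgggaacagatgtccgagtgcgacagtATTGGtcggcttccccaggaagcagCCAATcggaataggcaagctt
RAD54L: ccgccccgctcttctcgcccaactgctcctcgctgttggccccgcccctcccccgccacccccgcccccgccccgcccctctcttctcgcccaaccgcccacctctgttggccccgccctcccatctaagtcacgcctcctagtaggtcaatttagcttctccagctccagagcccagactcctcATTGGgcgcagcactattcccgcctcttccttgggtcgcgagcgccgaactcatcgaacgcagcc
EXO1: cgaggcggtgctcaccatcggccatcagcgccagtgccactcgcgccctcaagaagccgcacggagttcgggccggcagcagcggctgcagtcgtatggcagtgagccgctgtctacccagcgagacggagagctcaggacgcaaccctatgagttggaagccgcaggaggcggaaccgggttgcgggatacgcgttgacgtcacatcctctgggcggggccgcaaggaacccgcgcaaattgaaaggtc
BRCA2: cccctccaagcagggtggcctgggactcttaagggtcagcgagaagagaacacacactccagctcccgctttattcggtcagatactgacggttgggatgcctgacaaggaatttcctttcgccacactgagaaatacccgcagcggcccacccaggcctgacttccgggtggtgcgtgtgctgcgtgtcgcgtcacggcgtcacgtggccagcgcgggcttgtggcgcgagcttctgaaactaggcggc

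BLM holds 3 CCAAT boxes in this window, RAD54L holds 1, and EXO1 and BRCA2 hold none. Over the 38 repair genes in the RefSeq promoter table, 52.6% had a CCAAT box, 7.89% an E2F word and 15.8% the word TTTGAA, beside 33.0%, 2.79% and 13.6% of the promoters of all 27305 genes in it. A CCAAT box stood in 8 of the 15 promoters of genes at least 1.5-fold higher in SUM159 and in 12 of the 23 others, shares of 53.3% and 52.2%. In comparison, of 11 promoters of S phase genes, 8 held an E2F word, 8 a CCAAT box and 0 the word TTTGAA, and of 11 promoters of G2/M genes, 0 held an E2F word, 11 a CCAAT box and 6 the word TTTGAA. These matches describe letters in a window and not binding.

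In the Fanconi anemia group of 10 genes, 4 were at least 1.5-fold lower and 1 higher in MDA-MB-231 (median log2 fold change -0.42), and 4 were higher and none lower in SUM159 (median 0.33). The shares were 40% and 10% in MDA-MB-231, against 15.8% and 18.3% of all genes, and 40% and 0% in SUM159, against 21.5% and 21.7%. FANCD2 (ENSG00000144554, chromosome 3 from 10026370 to 10101932) encodes a subunit of the clamp that is ubiquitinated at a crosslink. It had 726 and 375 counts in MDA-MB-231 and 170 and 716 in SUM159, log2 fold changes of -0.68 (-0.86 to -0.50) and 1.76 (1.51 to 2.01). FANCI, the partner in that clamp, had 1503 and 897 counts and then 398 and 1008, log2 fold changes of -0.47 (-0.59 to -0.35) and 1.02 (0.86 to 1.20). The clamp genes thus shared their directions, with the SUM159 library with DMSO the lowest of the 4 for both. Scaled by total counts, FANCD2 in MDA-MB-231 stood at -0.41 and FANCA at -0.54, both short of 1.5-fold.

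The core complex, which is the ubiquitin ligase for that clamp, was not uniform. FANCA had 1036 and 491 counts in MDA-MB-231 and 217 and 730 in SUM159, log2 fold changes of -0.80 (-0.96 to -0.65) and 1.43 (1.21 to 1.66), with 2409 of its exonic bases opposite those of ZNF276. FANCB, at 27 to 102 counts, was at -1.23 (-1.82 to -0.67) and 1.06 (0.40 to 1.76), and FANCG was 2.05-fold lower in MDA-MB-231 (1682 to 680 counts) and within 1.5-fold in SUM159 (433 to 622). FANCF, the adaptor of the complex, differed from these. Its 156 and 209 counts in MDA-MB-231 gave a log2 fold change of 0.69 (0.39 to 1.00), and its 201 and 199 counts in SUM159 one of -0.33 (-0.62 to -0.04). FANCC, FANCE, FANCL, which is the catalytic subunit, and FANCM, the anchor on chromatin, lay between -0.43 and 0.45 in both lines, and for FANCL and FANCM all intervals included 0. Scaled by total counts, FANCL passed 1.5-fold in MDA-MB-231 (0.62) and FANCM in SUM159 (0.75).

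**Figure D3:**
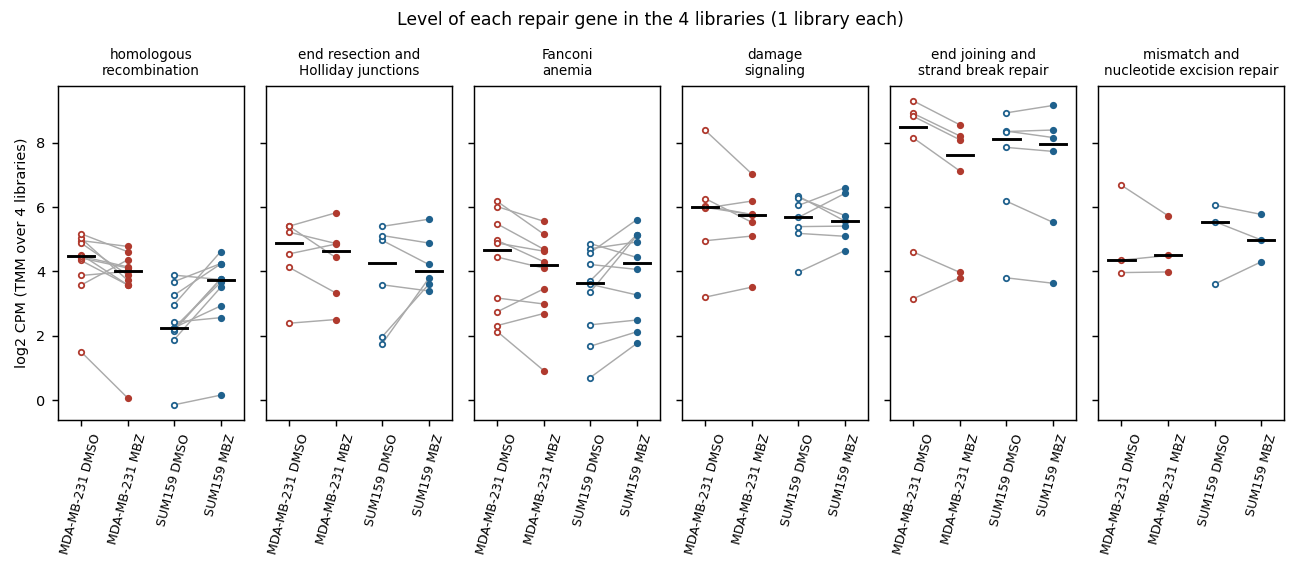
Level of each repair gene in log2 CPM, with TMM scaling over the 4 libraries (vertical axis), in each library (horizontal axis), 1 panel per role group. Open circles are DMSO, filled circles MBZ, grey lines join the 2 libraries of a line and black bars are medians. For homologous recombination the medians are 22.2 and 16.0 CPM in MDA-MB-231 with DMSO and MBZ and 4.77 and 13.4 CPM in SUM159.

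Levels across the 4 libraries showed that the lines stood apart with DMSO and closer with MBZ. The SUM159 library with DMSO was the lowest of the 4 for 21 of the 43 genes (48.8%, against 29.5% of all genes compared in both lines), and for 10 of the 11 recombination genes. The MDA-MB-231 library with DMSO was the highest for 26 (60.5%, against 26.9%). Between the lines, the median distance in CPM over the 43 genes was 2.69-fold with DMSO and 1.36-fold with MBZ. It was smaller with MBZ for 34 genes (79.1%, against 58.5% of the genes detected in all 4 libraries). This restates the opposite changes on the scale of levels and is not independent of them.

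Of the 7 damage signaling genes, 2 were at least 1.5-fold lower in MDA-MB-231 and none higher (median -0.24), and 2 were higher and 1 lower in SUM159 (median 0.02). The MDA-MB-231 shares were 28.6% and 0%, against 15.8% and 18.3% of all genes. The SUM159 shares, 28.6% and 14.3%, lie near the 21.5% and 21.7% of all genes. H2AX showed the widest change. H2AX (ENSG00000188486, 1 exon on chromosome 11 from 119093874 to 119095465) encodes the histone variant whose phosphorylated form, γH2AX, marks broken DNA. The study measured that form as protein, whereas the values here are of its transcript. H2AX had 7751 reads in the DMSO library of MDA-MB-231 and 2487 in the MBZ library, a log2 fold change of -1.37 (-1.43 to -1.30), or 2.58-fold lower. In SUM159 it had 1099 and 2004 counts, a log2 fold change of 0.55 (0.44 to 0.66), short of 1.5-fold. Its level was 5.03-fold higher in MDA-MB-231 than in SUM159 with DMSO and 1.35-fold higher with MBZ. MDC1, the scaffold that reads γH2AX, passed 1.5-fold in both lines, from 1787 to 876 counts and from 849 to 1772 counts, log2 fold changes of -0.76 (-0.87 to -0.64) and 0.75 (0.63 to 0.86). The value of MDC1 in MDA-MB-231 was -0.49 with scaling by total counts, short of 1.5-fold, and that of H2AX in SUM159 was 0.85, past it. Exons of TUBB and of an antisense RNA lie opposite 714 bases of MDC1.

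The kinases did not follow a single pattern. ATM (ENSG00000149311, chromosome 11 from 108223044 to 108369102), activated by double-strand breaks, had 1455 and 1385 counts in MDA-MB-231 and 1342 and 976 in SUM159. Its log2 fold changes were 0.20 (0.09 to 0.31) and -0.78 (-0.90 to -0.66), the latter -0.47 when scaled by total counts. ATR, activated by single-stranded DNA at stalled forks, had 721 and 652 counts and then 602 and 704. With TMM it did not differ beyond counting error in either line (0.13 and -0.09). Scaled by total counts, ATR stood at 0.39 and 0.21. ATM was among the 3 genes at least 1.5-fold lower in SUM159, beside MRE11 and XRCC1.

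Downstream of ATR, CHEK1 encodes the checkpoint kinase that delays mitosis. It had 1522 and 1039 counts in MDA-MB-231 and 261 and 518 in SUM159, log2 fold changes of -0.28 (-0.39 to -0.16) and 0.67 (0.46 to 0.89). CHEK2, the kinase downstream of ATM, had 214 and 217 counts in MDA-MB-231 (0.29, interval 0.01 to 0.57) and 696 and 877 in SUM159 (0.02, interval -0.13 to 0.16). CHEK2 was the gene with the widest excess of SUM159 over MDA-MB-231 with DMSO, 4.56-fold in CPM, and that excess was 3.72-fold with MBZ. The annotation lists 7 pseudogenes under its name, which can take reads from it. TP53BP1, which steers breaks to end joining, was at -0.24 (-0.36 to -0.13) and -0.56 (-0.68 to -0.44), with 0.02 for the first when scaled by total counts. Exons of TUBGCP4 lie opposite 3732 of its 12976 exonic bases.

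Of the 6 genes of end joining and strand break repair, 5 were at least 1.5-fold lower in MDA-MB-231 (median log2 fold change -0.73) and 1 was in SUM159 (median -0.15). These are 83.3%, against 15.8% of all genes, and 16.7%, near the 21.7% of all genes. PARP1, at -0.78, was the 1 of the 6 at least 1.5-fold lower in MDA-MB-231 when scaled by total counts. XRCC6 and XRCC5 encode the Ku70 and Ku80 subunits that grip a broken end, and PRKDC the kinase they recruit. XRCC6 had 14643 and 7148 counts in MDA-MB-231 and 8074 and 11779 in SUM159, XRCC5 had 11168 and 5623 and then 5444 and 5903, and PRKDC had 10500 and 5180 and then 5398 and 6942. All 3 were 1.64-fold to 1.70-fold lower in the first line, with log2 fold changes of -0.76, -0.72 and -0.75. In SUM159 they were at 0.23, -0.20 and 0.05, none at 1.5-fold. Scaled by total counts, they stood at -0.50, -0.45 and -0.48 in MDA-MB-231, short of 1.5-fold, and XRCC5 stood at 0.10 in SUM159. XRCC6 has 5 pseudogenes of its name in the annotation.

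LIG4, the ligase that completes end joining, was the exception in this group. It had 207 and 266 counts in MDA-MB-231, a log2 fold change of 0.63 (0.37 to 0.90), and 231 and 256 in SUM159, one of -0.17 (-0.43 to 0.09). With PALB2 and FANCF it made up the 3 genes at least 1.5-fold higher in MDA-MB-231, none of them above 390 counts in any library. With DESeq2 size factors LIG4 was just short of 1.5-fold (0.58).

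PARP1 (ENSG00000143799, chromosome 1 from 226360210 to 226408154), the sensor of strand breaks and target of PARP inhibitors, had 6592 and 2643 counts in MDA-MB-231, a log2 fold change of -1.05 (-1.11 to -0.98), or 2.07-fold lower. In SUM159 its 3834 and 4380 counts gave -0.12 (-0.19 to -0.06), and 0.18 with scaling by total counts. XRCC1, the scaffold that PARP1 activity recruits, was the gene most alike in the 2 lines. Its counts went from 565 to 298 and from 1203 to 950, log2 fold changes of -0.65 (-0.86 to -0.45) and -0.66 (-0.78 to -0.53), and its level was about 3-fold higher in SUM159 with either treatment (2.99-fold with DMSO and 2.94-fold with MBZ). XRCC1 was short of 1.5-fold in both lines when scaled by total counts, at -0.38 and -0.36.

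Of the 3 mismatch and excision repair genes, MSH6 was the 1 at least 1.5-fold lower in MDA-MB-231 and DDB2 the 1 higher in SUM159. Each is 33.3% of the group, against 15.8% of all genes lower in MDA-MB-231 and 21.5% higher in SUM159. MSH6, which recognizes mismatched bases, was 1.95-fold lower in MDA-MB-231, from 2379 to 1011 counts, and had 1105 and 1128 counts in SUM159. DDB2 and XPC detect ultraviolet damage for nucleotide excision repair, and both are known targets of p53. DDB2 had 475 and 429 counts in MDA-MB-231 (0.13, interval -0.07 to 0.32) and 202 and 406 in SUM159 (0.69, interval 0.44 to 0.94). XPC had 363 and 301 counts (0.00, interval -0.22 to 0.23) and 776 and 651 counts (-0.57, interval -0.72 to -0.42). Genes on the other strand overlap 4288 exonic bases of MSH6 and 1140 of XPC. The intervals of DDB2 and XPC in SUM159 lay on opposite sides of 0. Of 8 other p53 target genes, 2 were at least 1.5-fold higher in MDA-MB-231 and 2 higher and 2 lower in SUM159, shares of 25% near the 18.3%, 21.5% and 21.7% of all genes. GADD45A, a stress-induced gene, was the only one of the 8 at least 1.5-fold higher in both, at 1.33 and 1.53. In MDA-MB-231 and then SUM159, the log2 fold changes were -0.11 and 1.07 for CDKN1A, 0.38 and -0.01 for MDM2, and 0.22 and -1.23 for SESN1. They were -0.01 and -0.96 for BBC3, -0.33 and 0.01 for BAX, 1.01 and -0.18 for FAS, and 0.16 and 0.14 for TNFRSF10B.

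Per kilobase of canonical transcript, the levels ranged widely. In MDA-MB-231 with DMSO, XRCC6 stood at 297 CPM per kilobase, H2AX at 209.5, XRCC5 at 142 and PARP1 at 71.3, whereas RAD50 stood at 0.63 and RAD54B at 0.92. The levels of RAD50 and RAD54B are understated where reads over their shared exonic bases were left out of the counts. In SUM159 with DMSO the most abundant was again XRCC6, at 229.7 CPM per kilobase, followed by XRCC5 at 97.3 and PARP1 at 58.2, and H2AX at 41.7. The recombination genes were scarce beside these, at 0.295 to 5.01 CPM per kilobase in SUM159 with DMSO and 0.92 to 14 in MDA-MB-231 with DMSO.

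The other genes of these pathways were described from a list of 55, of which 54 could be compared and NHEJ1, with at most 2 counts, could not. In MDA-MB-231, 13 were at least 1.5-fold lower and 1 higher (24.1% and 1.85%, against 15.8% and 18.3% of all genes), and the median log2 fold change was -0.35. In SUM159, 18 were higher and 2 lower (33.3% and 3.70%, against 21.5% and 21.7% of all genes), with a median of 0.32, and 5 were lower in MDA-MB-231 and higher in SUM159 (3.12% of all genes). With scaling by total counts the split was 5 higher and 7 lower in MDA-MB-231 (29.1% and 7.57% of all genes) and 28 higher and 1 lower in SUM159 (32.8% and 12.8%). EME1, partner of the MUS81 nuclease that cuts joined DNA molecules, had 255 and 119 counts in MDA-MB-231 and 31 and 336 in SUM159, log2 fold changes of -0.83 and 3.12. CLSPN, which brings CHEK1 to ATR, went from 1274 to 529 and from 53 to 248, log2 fold changes of -1.0 and 1.91. At the other end, ERCC4, the nuclease subunit XPF, was at 0.61 and -0.42, and WDR48, cofactor of the enzyme that removes ubiquitin from the FANCD2 clamp, at 0.20 and -0.62.

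Cell cycle genes moved beside the repair genes, and further. Of 13 S phase genes, 12 were at least 1.5-fold lower in MDA-MB-231 (median log2 fold change -1.20) and 9 higher in SUM159 (median 1.16), or 92.3% and 69.2%, against 15.8% and 21.5% of all genes. Of 13 G2/M genes, MDA-MB-231 had 11 lower (median -0.95) and SUM159 had 13 higher (median 2.40), or 84.6% and 100% against the same shares. Among S phase genes whose mean reached 100 counts in each line, the widest differences were those of RRM2, a subunit of ribonucleotide reductase (-0.78 and 2.61), and GINS2, of the replicative helicase (-1.82 and 1.5), and the narrowest those of MCM3 (-1.21 and 0.19) and CDT1 (-1.40 and -0.19). Among G2/M genes so filtered, the widest were those of PLK1, a mitotic kinase (-1.34 and 2.92), and CDC20, the activator of anaphase (-0.48 and 3.23), and the narrowest those of TOP2A (-1.01 and 1.28) and KIF11 (-0.95 and 1.10). The summed level of the S phase genes was 2315 and 1092 CPM in MDA-MB-231 with DMSO and MBZ and 622 and 1126 CPM in SUM159, and that of the G2/M genes was 4092, 2229, 373 and 1863 CPM. The 11 recombination genes summed to 245.7, 177, 73.7 and 142 CPM in the same order. The part of the cell cycle in the changes of the repair genes was not tested.

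**Figure D4:**
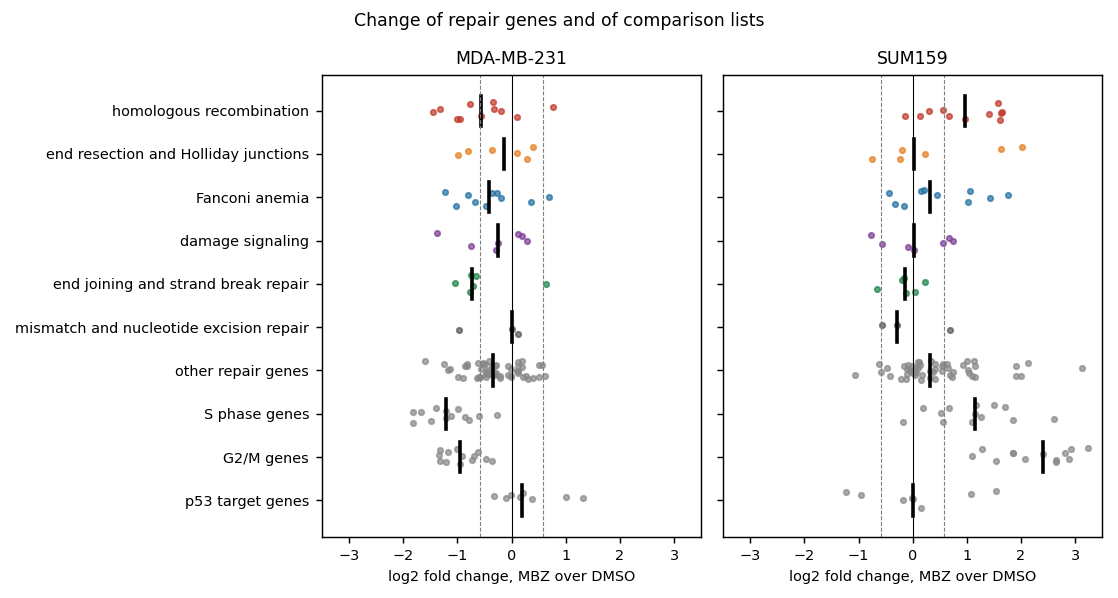
Log2 fold change of MBZ over DMSO (horizontal axis) for the 6 role groups of repair genes (colored) and 4 comparison lists (grey) in each line. Points are genes, black bars medians and dashed lines a 1.5-fold change, with points spread vertically for visibility. G2/M genes have medians of -0.95 in MDA-MB-231 and 2.40 in SUM159.

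The difference between the lines was taken per gene as the log2 fold change in SUM159 minus that in MDA-MB-231. It was above 0 for 28 of the 43 genes (65.1%, against 48.1% of all genes compared in both lines), with a median of 0.86 against -0.04. Its counting interval lay above 0 for 27 genes (31.6% of all genes) and below 0 for 8 (34.4%). The intervals of the 2 lines lay on opposite sides of 0 for 21 genes, beside 20% of all genes. The recombination genes had a median difference of 1.74, and 10 of the 11 were above 0. With 1 library per condition, no test of a difference between the lines was possible. Scaling by total counts moved every difference by 0.04 and DESeq2 size factors by 0.06.

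Replication in this design exists only across the lines, so the test that could be made takes them as replicates and asks for a response they share. In edgeR's quasi-likelihood test with cell line and treatment, 0 of the 43 genes had an adjusted p under 0.05 (Benjamini-Hochberg over 16100 genes, of which 0.00621% passed), and 0 had an unadjusted p under 0.05 (7.14% of all genes). DESeq2's Wald test gave 0 for both as well, while it called 0.706% of the 13603 genes with an adjusted p and 5.53% of 16100 without adjustment. XRCC1 came closest in edgeR's test, at a log2 fold change of -0.61 (standard error 0.28), an unadjusted p of 0.0636 and an adjusted p of 0.701, and was lower in both lines. The spread in that fit reflects how far the responses of the lines lie apart, but also counting error at low counts. It was wide for BLM (0.61, standard error 0.73) and RAD54L (0.05, standard error 0.68), which changed in opposite directions. NBN, with smaller opposite changes, had a standard error of 0.30. FANCL, at 84 to 123 counts and with closer responses, had one of 0.49.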

How the data were processed

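The 4 libraries, 1 per line and treatment, were grouped by the line and MBZ dose in their labels. The authors mapped paired-end reads to GRCh38 with STAR v2.5 and counted them by gene with HTSeq v0.6.1 (union mode), and the deposited values are whole-number counts, not normalized. Annotation release and strand setting are not given in the sources used here, so overlapping and antisense genes carry that limit. No row lacked a gene.

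Symbols, coordinates, exons and shared bases came from GENCODE release 44 on GRCh38, and promoters from RefSeq on GRCh38.p14, which listed 38 of the 43 genes. Log2 fold changes were differences of log2 CPM from edgeR 4.0.16 (R 4.3.3), with TMM within a line and a prior count of 0.125. A gene was compared at a mean of at least 10 counts in a line and called at 1.5-fold. The 95% interval of a change was the Clopper-Pearson interval of the MBZ library's part of the gene's reads, and that of a difference between lines was a normal interval from the 4 counts. Both cover counting error only, as reads amplified by PCR and counted without molecular identifiers may repeat a molecule. Levels across lines used TMM over the 4 libraries, per kilobase of canonical transcript where stated.

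A shared response was tested by edgeR's quasi-likelihood fit of cell line and treatment (filterByExpr, Benjamini-Hochberg), in which the common biological coefficient of variation was 0.323, and by DESeq2 1.42.0 as an alternative. The functions were tested on simulated counts. For a simulated 4-fold change, the shared test called 89.5% of changed genes at a coefficient of variation of 0.2 and 28.5% at 0.4. Other alternatives were 3 scalings, filters, prior counts and thresholds.

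The genes, lists and tests were chosen with earlier results of these data known. The genes named are all 43, the 8 p53 targets and, from each other list, the 2 with the highest and the 2 with the lowest difference between lines at a mean of at least 100 counts in each. Protein sequences were not used here.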

Additional observations from a re-analysis of the deposited data

Results flagged for a closer look

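For 21 of the 43 repair genes, the counting intervals of the 2 lines lay on opposite sides of 0, as they did for 20% of the 13733 genes compared in both lines. The differences (log2 fold change in SUM159 minus that in MDA-MB-231) were not tested, since each line had 1 library per treatment. Among recombination genes the difference was 1.84 for BRCA1, 2.56 for BRCA2, 1.68 for BRIP1, 1.95 for RAD51AP1, 2.73 for RAD54L, 1.92 for XRCC2 and 1.13 for XRCC3. It was 2.61 for EXO1 and 2.83 for BLM. Among Fanconi anemia genes it was 2.24 for FANCA, 2.28 for FANCB, 2.44 for FANCD2, 1.24 for FANCG and 1.5 for FANCI. For CHEK1 it was 0.95, for H2AX 1.92, for MDC1 1.5 and for XRCC6 0.99. NBN at -0.63, FANCF at -1.02 and ATM at -0.98 had the opposite sign, with the higher value in MDA-MB-231. With scaling by total counts the intervals still lay on opposite sides of 0 for 15 of the 21. Under that scaling 20 of the 43 genes had such intervals, beside 19.1% of all genes, with BARD1, XRCC5, PRKDC, PARP1 and XPC added. The opposite intervals were lost for BRCA1, RAD51AP1, XRCC2, NBN, FANCF and CHEK1.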

How the results depend on the processing

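No paired analysis was possible because the groups share only replicate number 1, other than the fit that keeps cell line as a term, and without that term 0 repair genes were called as well. No library could be left out of a line with 1 per treatment. Of the 86 values of the 43 genes in the 2 lines, 73 kept their sign under the 3 other scalings and a prior count of 2, and none of the 41 past 1.5-fold changed it. DESeq2 size factors, TMM over the 4 libraries, a prior count of 2, all genes with 1 count or more and a mean of at least 100 counts kept all counts of the 43 genes within 1.5 times, but the 1 other repair gene higher in MDA-MB-231 became 0 with DESeq2 size factors and 2 with all genes of 1 count or more. With scaling by total counts, MDA-MB-231 had 5 repair genes higher and 10 lower and 0 were lower in SUM159, the medians were -0.10 and 0.52, and the other repair genes were 5 higher and 7 lower, then 28 higher and 1 lower. This scaling shifted all genes of a line alike. At 2-fold, MDA-MB-231 had 0 repair genes higher and 7 lower, 0 were lower in SUM159 and 2 (RAD54L and FANCB) had opposite directions, beside 9.05% and 5.14%, 10.7% and 0.83% of all genes, while MDA-MB-231 had 0 other repair genes higher and 4 lower, 1 was lower in SUM159 and 14 cell cycle genes were lower in MDA-MB-231. By counting interval instead, MDA-MB-231 had 7 repair genes higher and 29 lower, beside 30.5% and 35.3% of all genes. SUM159 had 21 higher and 11 lower, beside 31.5% and 37.0%. Intervals were opposite for 18 and 3 genes, beside 10.6% and 9.4%. Other repair genes stood at 9 higher and 32 lower, then 28 higher and 8 lower, beside the same shares in each line. By this rule 1 cell cycle gene was lower in SUM159. For the 15 repair genes without pseudogenes or exonic bases shared with another gene of the count table, an alternative chosen after seeing the data, the medians were -0.75 and 0.55, and the cause was not tested. The test of changes alike called 0 repair genes under each of its 4 alternatives. Low counts limit RAD54B and FANCB, whose intervals are widest.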
